A study of Mus musculus with 16 samples.

Results

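The genes described here are 33 mouse genes of glycolysis and of the response to low oxygen, chosen by name. They are the glucose carriers Slc2a1 and Slc2a3, the glycolytic enzymes Hk1, Hk2, Gpi1, Pfkl, Pfkm, Pfkp, Aldoa, Aldoc, Tpi1, Gapdh, Pgk1, Pgam1, Eno1, Eno2 and Pkm, the regulatory enzyme Pfkfb3, the lactate dehydrogenases Ldha and Ldhb, the lactate carriers Slc16a1 and Slc16a3, the kinase Pdk1, and the hypoxia response genes Vegfa, Egln1, Egln3, Bnip3, Ankrd37, Ndrg1, Adm, Hif1a, Mxi1 and P4ha1. All 33 were found among the 55335 genes of the count files, and all 33 passed the filter on low counts that left 19764 genes for testing.

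RNA was measured in mouse oligodendrocyte precursor cells (OPCs, the dividing cells that give rise to myelin-forming oligodendrocytes), grown by way of oligospheres from neural stem cells of a mixed C57BL6J/129svEmx background. Poly-A RNA was taken on day 4 of monolayer culture. There were 4 groups of 4 libraries: RXRgKO-labelled cells (RXRg-/-, without the retinoid X receptor gamma by design) exposed for 24 h to triiodothyronine (T3, the active thyroid hormone), RXRgKO-labelled cells left untreated, WT-labelled cells (RXRg+/+) exposed to T3 for 24 h, and WT-labelled cells left untreated. The dose of T3, the part of Rxrg that was deleted and the animals behind each library are not stated in the sources used here, so p-values measure the spread between these libraries, which may be technical.

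Glycolysis splits glucose to pyruvate and yields ATP without oxygen, and lactate dehydrogenase turns pyruvate into lactate, which leaves the cell through monocarboxylate carriers. When oxygen is low, the factor HIF-1 escapes hydroxylation by the EGLN prolyl hydroxylases and switches on most of these genes through short DNA motifs near their starts. Oligodendrocytes are known for aerobic glycolysis and for passing lactate to axons, and T3 drives OPCs to stop dividing and to mature.

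The targeted gene went against its labels. Rxrg stood at 4.27 to 5.46 CPM (normalised read count, scaled to the size of the library) in RXRgKO-labelled libraries with T3 and 3.77 to 4.83 CPM in untreated RXRgKO-labelled libraries. In WT-labelled libraries it stood at 0.371 to 0.96 CPM with T3 and at 1.14 to 1.79 CPM untreated. Counts per gene do not show which exons the reads came from, so the genotypes are named below only as labels. All 4 of Klf9, Hr, Dio3 and Dbp, known T3 targets, rose with T3 under both labels. Their summed level was 178 to 291 CPM with T3 against 33 to 42.6 CPM untreated in RXRgKO-labelled libraries, and 293 to 459 CPM with T3 against 62.2 to 140 CPM untreated in WT-labelled libraries.

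Libraries held 18262279 to 42588442 gene counts, and the 33 genes took 0.236% to 0.373% of them. The libraries of a group fell into sets with nearly the same counts: pairs of libraries in the same set differed by a chi-square of at most 2.12 per gene, and pairs from different sets by at least 4.94. RXRgKO-labelled libraries formed one set lacking Xist (untreated replicates 1 and 3, T3 replicates 1 and 2) and one with Xist (untreated replicates 2 and 4, T3 replicates 3 and 4), whereas WT-labelled replicate 1 stood alone in both treatments and WT-labelled replicates 2 to 4 formed the remaining set. The match of T3 with untreated libraries of a set rests on replicate numbers (WT label) or on Xist (RXRgKO label), and the labels do not say that they share a culture. The sex-linked genes Xist and Ddx3y differed between treatments within a set. In WT-labelled replicates 2 to 4 Xist stood at 276 to 365 CPM with T3 and 1200 to 1380 CPM untreated, and Ddx3y at 68.1 to 78.3 CPM with T3 and 13.9 to 15.8 CPM untreated. In the RXRgKO-labelled set with Xist, Ddx3y stood at 20.7 and 22.1 CPM with T3 and at 51.2 and 52.9 CPM untreated. T3 and untreated libraries of these sets may therefore come from different cell mixtures, and this cannot be told apart from T3 within them. OPC markers were present in every library, from Cspg4 at 28.2 CPM or more to Ptprz1 at 689 CPM or more. The 7 OPC markers summed to 1970 to 3900 CPM with T3 and 2420 to 4600 CPM untreated under the RXRgKO label. Under the WT label they summed to 2860 to 4240 CPM and 3540 to 5060 CPM. The astrocyte sum was above the OPC sum in some libraries (7610 against 2030 CPM in RXRgKO-labelled T3 replicate 1) and below it in others (2760 against 4590 CPM in untreated RXRgKO-labelled replicate 2). Of the 8 oligodendrocyte markers, all 8 were lower in untreated RXRgKO-labelled libraries, where they summed to 1690 to 2290 CPM against 13100 to 17700 CPM in untreated WT-labelled ones. With T3 the sum was 3150 to 5120 CPM in RXRgKO-labelled libraries and 19400 to 29700 CPM in WT-labelled ones.

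Levels of the 33 genes, given as CPM per kilobase of annotated exon so that genes can be compared, spanned from 0.165 for the lactate exporter Slc16a3 to 197 for Aldoc, an aldolase of brain (means over 16 libraries). The glycolytic isozyme pairs were unequal. Aldoc stood at 197 and Aldoa at 91.2 CPM per kb, Ldhb, the dehydrogenase form that favours lactate use, at 93.9 and Ldha, the form that favours lactate production, at 46.6. The lactate carrier Slc16a1 stood at 23.0 CPM per kb against 0.165 for Slc16a3. Of the phosphofructokinases, which commit sugar to glycolysis, Pfkm led at 32.0 CPM per kb, with Pfkl at 8.75 and Pfkp at 6.39 as means over all libraries. Pfkp lay above Pfkl in some T3 libraries, at 9.03 to 9.83 CPM per kb against 6.63 to 6.93 in WT-labelled replicates 2 to 4 and at 7.08 and 7.34 against 6.85 and 6.70 in RXRgKO-labelled replicates 2 and 1. Hk1 stood at 10.4 and Hk2 at 2.71 CPM per kb, both being hexokinases that trap glucose in the cell. Among the hypoxia genes Hif1a, which encodes the regulated subunit of HIF-1, was highest at 51.4 CPM per kb, followed by Egln1 at 21.1, P4ha1 at 15.8 and Bnip3 at 14.4, and Ankrd37, Ndrg1 and Adm lay at 1.61, 1.43 and 1.23. The order carries the error of the exon lengths and of shared sequence. For Pfkp the length used was 13401 bases, against 4145 in its longest coding transcript, and for Pfkl 6675 against 3730. Neighbours in it often overlapped over the libraries: Ldhb spanned 63.5 to 132 CPM per kb and Aldoa 62.6 to 146.

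Some of these levels are uncertain because reads that match several genes are not counted by default in the tool the authors named. Entries placed at several sites made up 39.6% to 55.0% of the entries in the counter's files. A read placed at several sites can give an entry for each site, so this is not a share of reads. In the longest coding transcript of Gapdh, 82.5% of 50-base windows also occurred in other genes' transcripts, among them 203 processed pseudogenes, and Gapdh, usually among the most abundant mRNAs of a cell, stood at 2.20 CPM per kb. The share was 72.2% for Eno1, shared with Eno1b, 68.0% for Pgk1, shared with Pgk1-rs7, 62.4% for Bnip3, 41.5% for Pgam1, 34.4% for Pkm, 27.0% for Ldhb, 25.3% for Gpi1 and 16.6% for Ldha. Pfkp shared 17.1% of its windows with Pitrm1, which overlaps it on the opposite strand. By contrast, 11 of the 33 genes shared no window, among them Egln3, Adm, Aldoc, Hk2, Slc16a1, Slc16a3 and P4ha1. The part of shared sequence in these levels was not tested. Reads from the 748 exon bases of Pfkp that overlap Pitrm1, of 13401 in all, cannot be told apart if strand was ignored in counting.

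**Figure D1:**
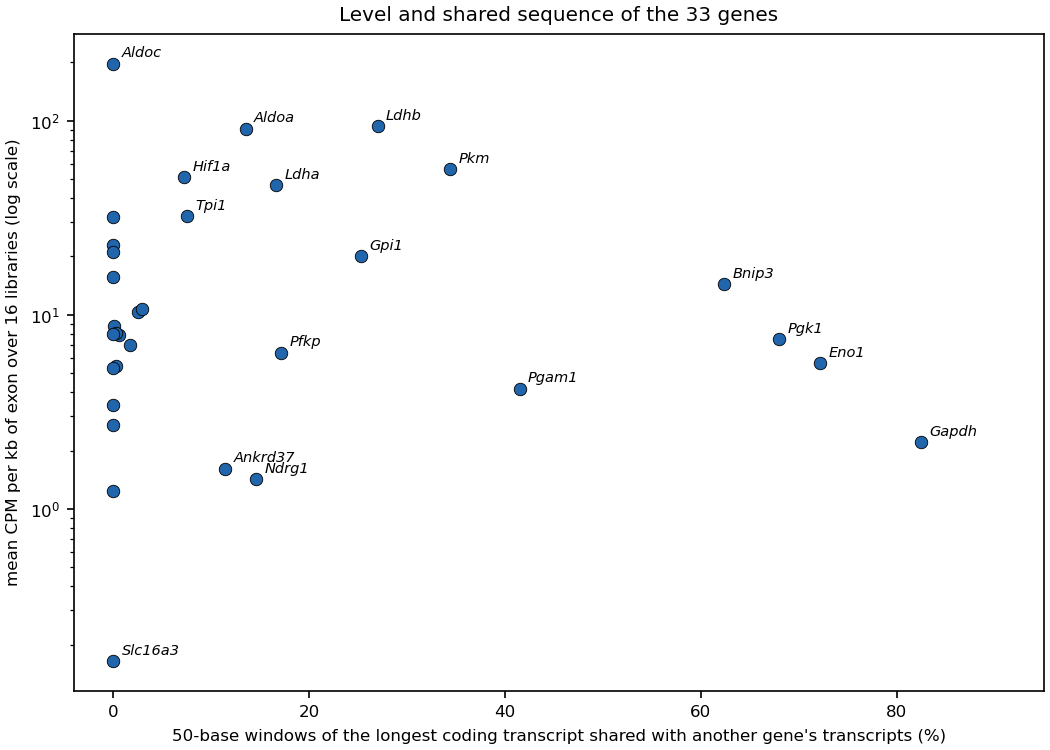
Mean level over 16 libraries (CPM per kb of exon, log scale) of each of the 33 genes against the percentage of 50-base windows of its longest coding transcript that occur in another gene's transcripts. Gapdh, at 82.5% shared windows, lies at 2.20 CPM per kb, and Aldoc, with no shared window, lies highest at 197 CPM per kb.

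The DNA upstream of 6 genes that lead the T3 comparisons (4 that rose with T3, with Ldha and Slc16a1) is shown because HIF is known to bind the motif ACGTG or GCGTG. RefSeq gives promoter windows, from 250 bases before to 50 after a start on GRCm38.p6, for 31 of the 33 genes (47 windows). The motif was found on either strand in the windows of 28 of these 31 genes (90.3%), against 46.7% of 27025 genes with a window, and ACGTG alone in 71.0% against 21.8%. The longer CACGTG, which holds ACGTG on both strands and is also bound by MYC family proteins, was found for 19.4% of the 31 genes against 8.09%. AGGTCA, the unit of a thyroid hormone response element, was found for 22.6% against 18.1%, and AGGTCA repeated after 4 free bases for 0 of 31 against 0.0148%. Genes with several windows had more room for a match. Per window the HIF motif was found in 78.7% against 43.8%, and AGGTCA in 17.0% against 16.3%. The list was drawn up to hold hypoxia response genes, so its higher share of HIF motifs is not a result of these data. A match is a run of letters and not a measured binding site. Below, the bases upstream of the first exon are given 5′ to 3′ on the gene's strand, with either motif or its reverse complement in capitals.
Egln3, chr12:54203875-54204124, minus strand: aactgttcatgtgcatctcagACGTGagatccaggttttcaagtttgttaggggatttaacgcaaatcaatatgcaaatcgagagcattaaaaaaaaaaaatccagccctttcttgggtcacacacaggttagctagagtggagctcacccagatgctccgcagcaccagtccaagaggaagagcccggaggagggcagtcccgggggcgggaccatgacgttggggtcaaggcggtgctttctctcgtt
Pfkfb3, chr2:11502102-11502340, minus strand: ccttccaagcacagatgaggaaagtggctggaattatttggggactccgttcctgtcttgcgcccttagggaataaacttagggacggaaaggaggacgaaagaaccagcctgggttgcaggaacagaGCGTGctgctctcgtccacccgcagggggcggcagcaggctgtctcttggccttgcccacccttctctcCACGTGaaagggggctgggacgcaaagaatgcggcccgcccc
Pfkp, chr13:6648778-6649021, minus strand: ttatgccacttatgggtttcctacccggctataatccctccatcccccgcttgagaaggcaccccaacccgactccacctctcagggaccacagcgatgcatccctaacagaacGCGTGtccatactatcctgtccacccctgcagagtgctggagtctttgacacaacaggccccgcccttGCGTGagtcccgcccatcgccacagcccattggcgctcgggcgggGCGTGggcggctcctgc
Pgk1, chrX:106186850-106187099, plus strand: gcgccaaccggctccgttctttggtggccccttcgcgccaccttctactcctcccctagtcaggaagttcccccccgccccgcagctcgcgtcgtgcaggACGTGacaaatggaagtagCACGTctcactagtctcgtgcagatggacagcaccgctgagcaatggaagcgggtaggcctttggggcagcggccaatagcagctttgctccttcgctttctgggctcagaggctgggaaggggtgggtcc
Ldha, chr7:46845554-46845803, plus strand: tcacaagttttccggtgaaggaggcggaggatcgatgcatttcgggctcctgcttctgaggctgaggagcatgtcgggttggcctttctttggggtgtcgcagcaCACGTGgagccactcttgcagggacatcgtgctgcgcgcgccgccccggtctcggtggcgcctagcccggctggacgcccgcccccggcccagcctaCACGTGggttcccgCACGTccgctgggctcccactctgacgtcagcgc
Slc16a1, chr3:104638414-104638663, plus strand: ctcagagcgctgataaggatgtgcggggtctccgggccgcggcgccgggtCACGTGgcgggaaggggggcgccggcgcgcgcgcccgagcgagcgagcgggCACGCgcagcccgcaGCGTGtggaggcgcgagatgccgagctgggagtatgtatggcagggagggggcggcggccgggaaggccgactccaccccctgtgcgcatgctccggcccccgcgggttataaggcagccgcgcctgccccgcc

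Counted on both strands, so that a CACGTG counts as 2, the Egln3 stretch holds 1 motif, those of Pfkfb3 and Pfkp 3 each, that of Pgk1 2, that of Ldha 5 and that of Slc16a1 4. The stretches of Ldha, Slc16a1 and Pfkfb3 hold CACGTG, and those of Egln3, Pfkp and Pgk1 do not. RefSeq gives Ldha and Pfkfb3 a further start each, whose upstream stretch, not printed, holds 1 motif for Ldha and 0 for Pfkfb3.

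The comparison of T3 with no treatment asks how the hormone moved these genes. In WT-labelled libraries 4 of the 33 genes (12.1%) rose and 0 fell at a Benjamini-Hochberg adjusted p under 0.05 in edgeR's quasi-likelihood test, against 4.96% of all tested genes higher and 3.48% lower. The median log2 fold change of the 33 was 0.265, beside -0.0316 over all genes tested. An unadjusted p under 0.05 was found for 12 of the 33. The share of all tested genes with such a p was not counted, here or in the comparisons below, so this count cannot be read as an excess. The genes that rose were Egln3, Pfkfb3, Pfkp and Pgk1. As in any bulk sample, a change in the mix of cells and a change of RNA per cell cannot be told apart.

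Egln3, the oxygen-sensing prolyl hydroxylase that is itself a HIF target, stood at 34.2, 26.3, 26.5 and 28.6 CPM with T3 in WT-labelled replicates 1 to 4, against 12.6, 12.1, 11.2 and 12.4 CPM untreated. Every T3 library lay above every untreated one. The log2 fold change was 1.26 (SE 0.15, edgeR adjusted p = 5.66e-05). Leaving out each library in turn kept the change between 1.15 and 1.31, with every adjusted p from edgeR at most 0.000484.

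Pfkfb3 makes fructose 2,6-bisphosphate, the activator of phosphofructokinase. It stood at 91.4, 59.3, 58.9 and 51.9 CPM with T3 and at 41.1, 35.0, 36.3 and 38.9 CPM untreated in WT-labelled replicates 1 to 4, a log2 fold change of 0.79 (SE 0.15, edgeR adjusted p = 0.00321). The groups did not overlap, and replicate 1 with T3 was the highest library. Pfkp, the platelet-type phosphofructokinase, stood at 170 CPM in replicate 1 and at 132, 125 and 121 CPM in replicates 2 to 4 with T3, against 99.0 CPM and 65.7, 71.6 and 67.6 CPM untreated. The change was 0.85 (SE 0.20, edgeR adjusted p = 0.0114), again with no overlap.

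Pgk1 encodes phosphoglycerate kinase, the first step of glycolysis that yields ATP, and its counts are uncertain because of its copy Pgk1-rs7. It stood at 20.8, 21.7, 25.1 and 28.2 CPM with T3 and at 18.8, 12.8, 10.6 and 11.9 CPM untreated, a log2 fold change of 0.82 (SE 0.20, edgeR adjusted p = 0.0142). Here replicate 1 was the lowest of the T3 libraries and the highest of the untreated ones. The call was lost without untreated replicate 2, 3 or 4 or T3 replicate 4, with adjusted p from edgeR of 0.0504 to 0.0593.

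Ldha and Slc16a1 had positive values that did not pass the threshold in WT-labelled libraries, while those of Ldhb and Slc16a3 were negative, at -0.14 and -1.13. Ldha stood at 227, 128, 142 and 161 CPM with T3 and 157, 72.8, 71.6 and 76.5 CPM untreated, with a log2 value of 0.80 (SE 0.26, edgeR adjusted p = 0.0642). For Slc16a1, the carrier that moves lactate across the membrane, the libraries stood at 157, 84.2, 87.8 and 95.4 CPM with T3 and 102, 49.9, 53.3 and 48.7 CPM untreated, with a value of 0.74 (SE 0.26, adjusted p = 0.0945). In both genes untreated replicate 1 lay above T3 replicate 2, so the groups overlapped, and replicate 1 was the highest library of each group. DESeq2 called both in WT-labelled libraries, with adjusted p of 0.0127 for Ldha and 0.0294 for Slc16a1.

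**Figure D2:**
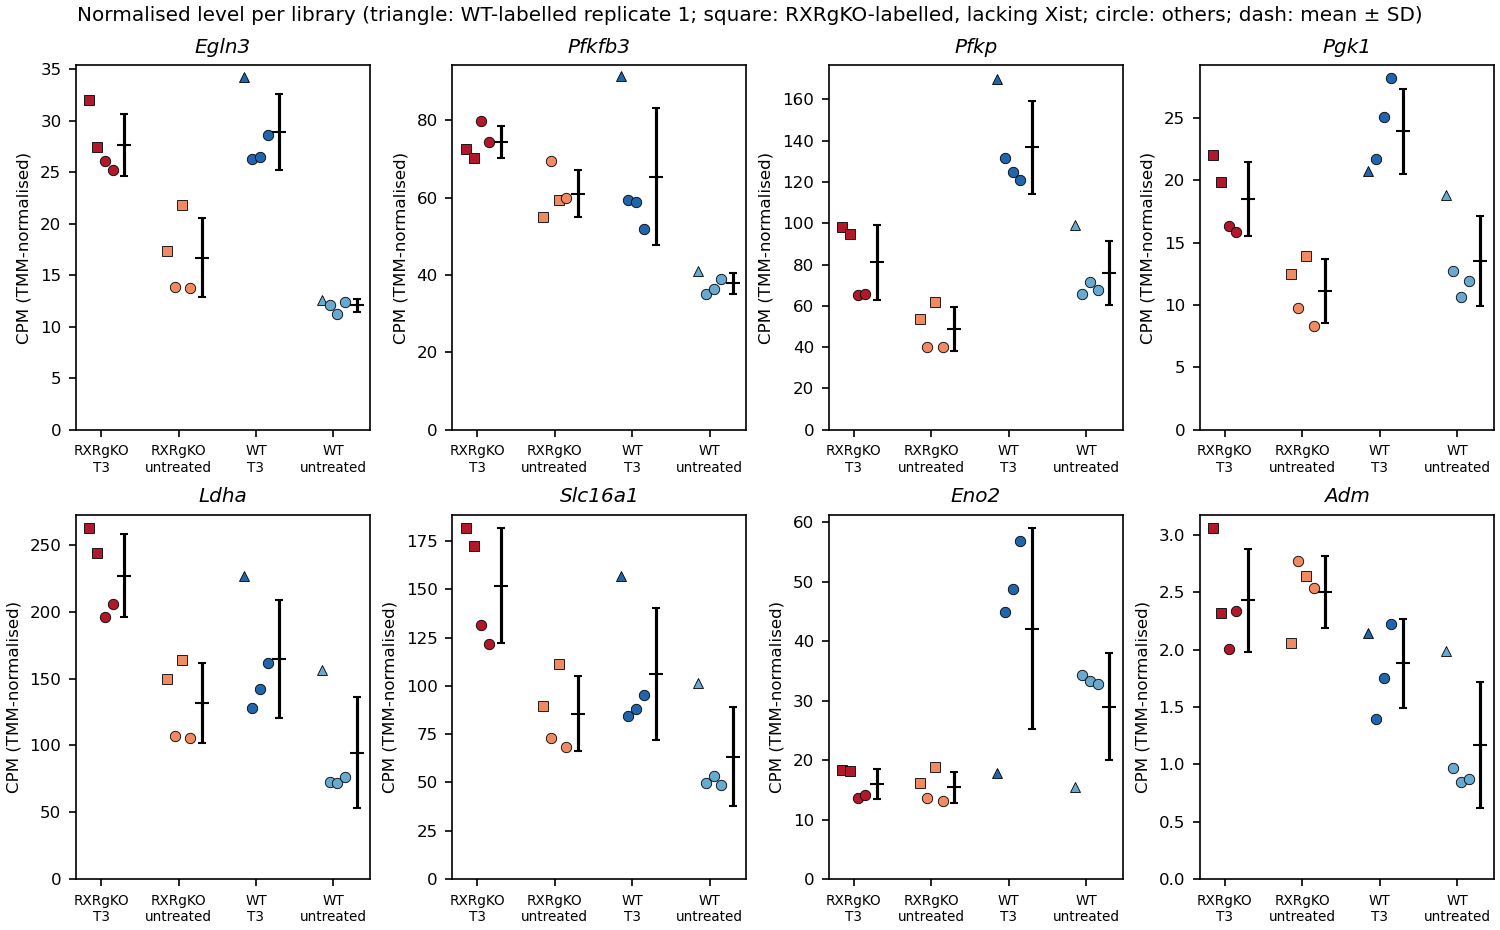
Normalised CPM of 8 genes in each of the 16 libraries, by group, with the mean ± SD (n = 4) as a dash with bars beside the points; triangles are WT-labelled replicate 1, squares the RXRgKO-labelled set lacking Xist. Egln3 stands at 25.2 to 34.2 CPM in all T3 libraries and at 11.2 to 21.8 CPM in all untreated ones.

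The other members in WT-labelled libraries ranged in log2 fold change from -1.13 for Slc16a3 to 0.92 for Hk2, with edgeR adjusted p of 0.155 and 0.167. Of the 33 values, 23 were above 0 and 10 below. Counting only groups that did not overlap, 5 genes lay higher in every T3 library (the 4 called genes and Aldoc) and 0 lower, against 7.69% and 7.74% of all genes tested.

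In RXRgKO-labelled libraries 1 of the 33 genes (3.03%), Egln3, rose with T3 and 0 fell, a share close to the 2.01% of all tested genes higher and 0.794% lower. The median log2 fold change was 0.251, beside -0.00188 over all genes tested, and 29 of the 33 values were above 0. An unadjusted p under 0.05 was found for 9, again with no share of all genes counted. Egln3 stood at 32.0, 27.4, 26.0 and 25.2 CPM with T3 in replicates 1 to 4, against 17.3, 13.9, 21.8 and 13.7 CPM untreated. No libraries overlapped, and the change was 0.73 (SE 0.15, edgeR adjusted p = 0.0109). Without untreated replicate 2 or 4 the adjusted p from edgeR became 0.0504 or 0.0524.

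Pfkp and Pgk1 lay near the threshold under this label. Pfkp stood at 98.4, 94.8, 65.2 and 65.6 CPM with T3 and 53.8, 40.1, 61.7 and 39.9 CPM untreated, with a log2 value of 0.73 (SE 0.20, edgeR adjusted p = 0.058), and Pgk1 at 22.1, 19.8, 16.4 and 15.8 CPM with T3 and 12.5, 9.75, 14.0 and 8.33 CPM untreated, with a value of 0.73 (SE 0.20, edgeR adjusted p = 0.0565). For both, the lowest T3 library lay above the highest untreated one, and the high libraries of each group were those lacking Xist.

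Ldha stood at 262, 244, 196 and 206 CPM with T3 against 150, 107, 164 and 105 CPM untreated in RXRgKO-labelled libraries, and Slc16a1 at 182, 173, 132 and 122 CPM with T3 against 89.3, 73.2, 111 and 68.4 CPM untreated. The groups did not overlap for either gene. Their log2 values were 0.79 (SE 0.25, edgeR adjusted p = 0.12) and 0.83 (SE 0.26, adjusted p = 0.11). DESeq2 called 5 members here, all higher, these 2 genes with Egln3, Pfkp and Pgk1, against 3.67% of its tested genes higher and 1.35% lower. In all, 10 of the 33 genes lay higher in every T3 library and 1, Gapdh, lower, against 7.87% and 5.5% of all genes tested.

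**Figure D3:**
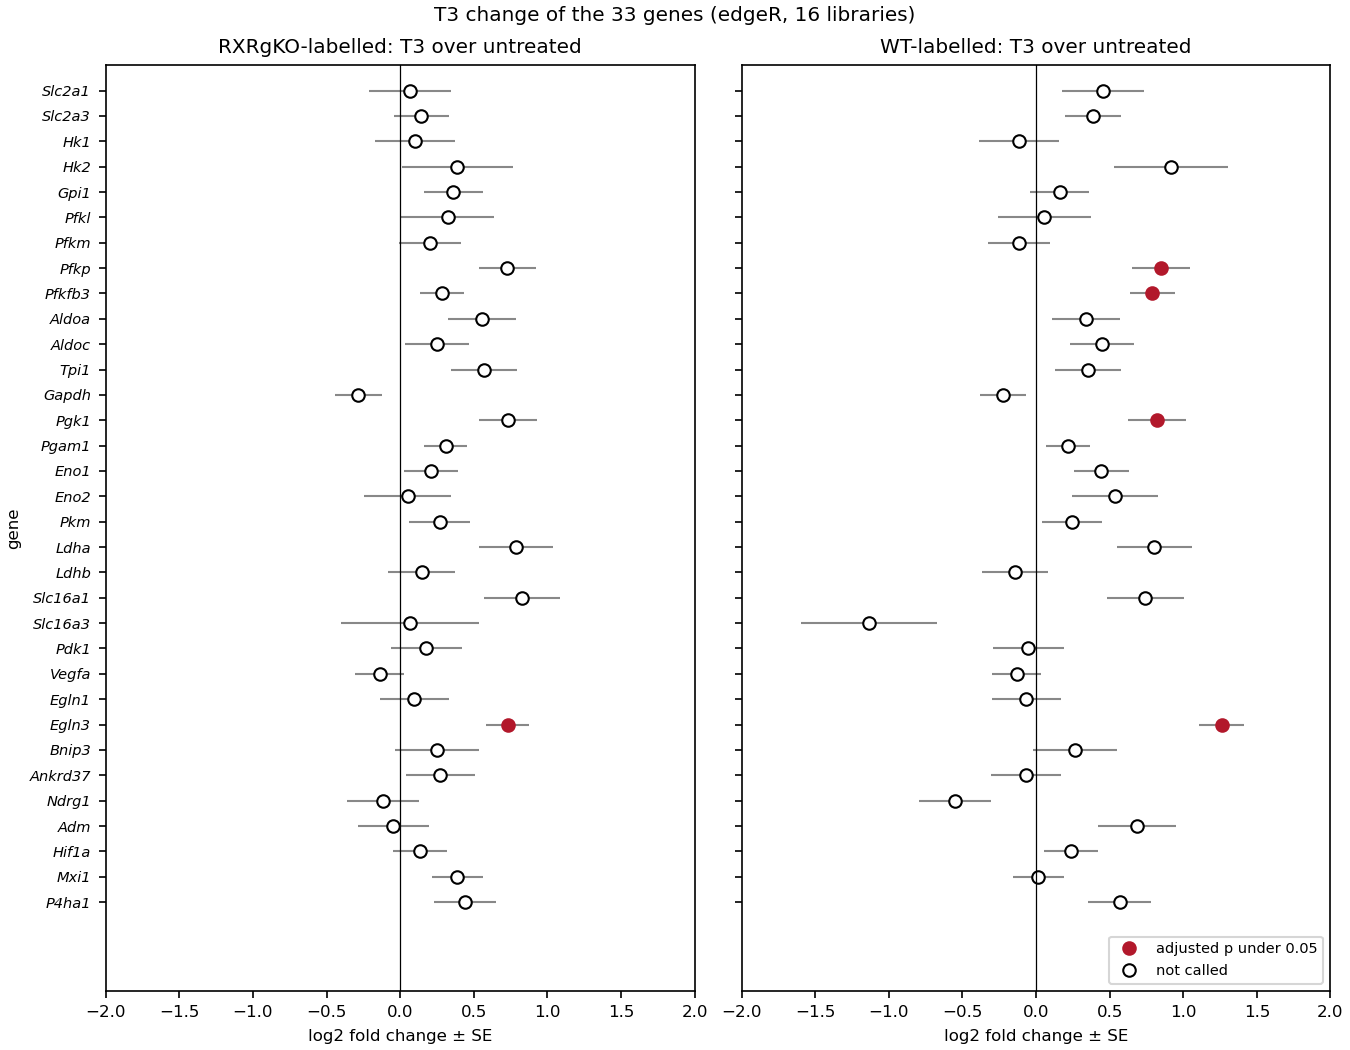
Log2 fold change of T3 over untreated with its SE for the 33 genes from the edgeR fit of 16 libraries, in RXRgKO-labelled (left) and WT-labelled (right) libraries; filled points passed an adjusted p of 0.05. Egln3 passed on both sides, at 0.73 and 1.26, and Pfkfb3, Pfkp and Pgk1 passed in WT-labelled libraries.

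As libraries of a group fell into sets, the T3 change was also taken within each of the 4 sets, as the log2 ratio of mean CPM, with the limit that Xist and Ddx3y differed between treatments in 2 of the sets. It was above 0 for 27 of the 33 genes in the RXRgKO-labelled set lacking Xist and for 28 in the set with Xist, and for 24 in WT-labelled replicate 1 and 23 in WT-labelled replicates 2 to 4. Of all genes, 46.9%, 51.8%, 47.3% and 46.4% were above 0 in these sets, in the same order. In all 4 sets together, 18 of the 33 genes (54.5%) were higher with T3, against 21.1% of all genes, and 2 (6.06%) were lower, against 22.6%. The 2 lower genes were Gapdh and Ndrg1, a stress-response gene whose loss causes a demyelinating neuropathy.

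Along the pathway, the 18 genes were Slc2a3 at the entry of glucose, Hk2, Gpi1, Pfkp and Pfkfb3 in the early steps, Aldoa, Aldoc, Tpi1, Pgk1, Pgam1, Eno1, Eno2 and Pkm in the later steps, Ldha and Slc16a1 at the exit of lactate, and Egln3, Hif1a and P4ha1 among the hypoxia genes. Slc16a1 spanned 0.62 to 0.84, Pfkp 0.71 to 0.88, and P4ha1, the catalytic subunit of collagen prolyl 4-hydroxylase, 0.42 to 0.65. Egln3 spanned 0.60 to 1.45 and Ldha 0.54 to 0.96. Other members changed sign between sets. The log2 ratio of Vegfa, the blood vessel growth factor, spanned -0.72 to 0.13, that of Bnip3, a mitophagy receptor, -0.55 to 0.43, that of Ankrd37 -0.73 to 0.63, and that of Pdk1, which holds pyruvate back from the mitochondrion, -0.09 to 0.18.

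**Figure D4:**
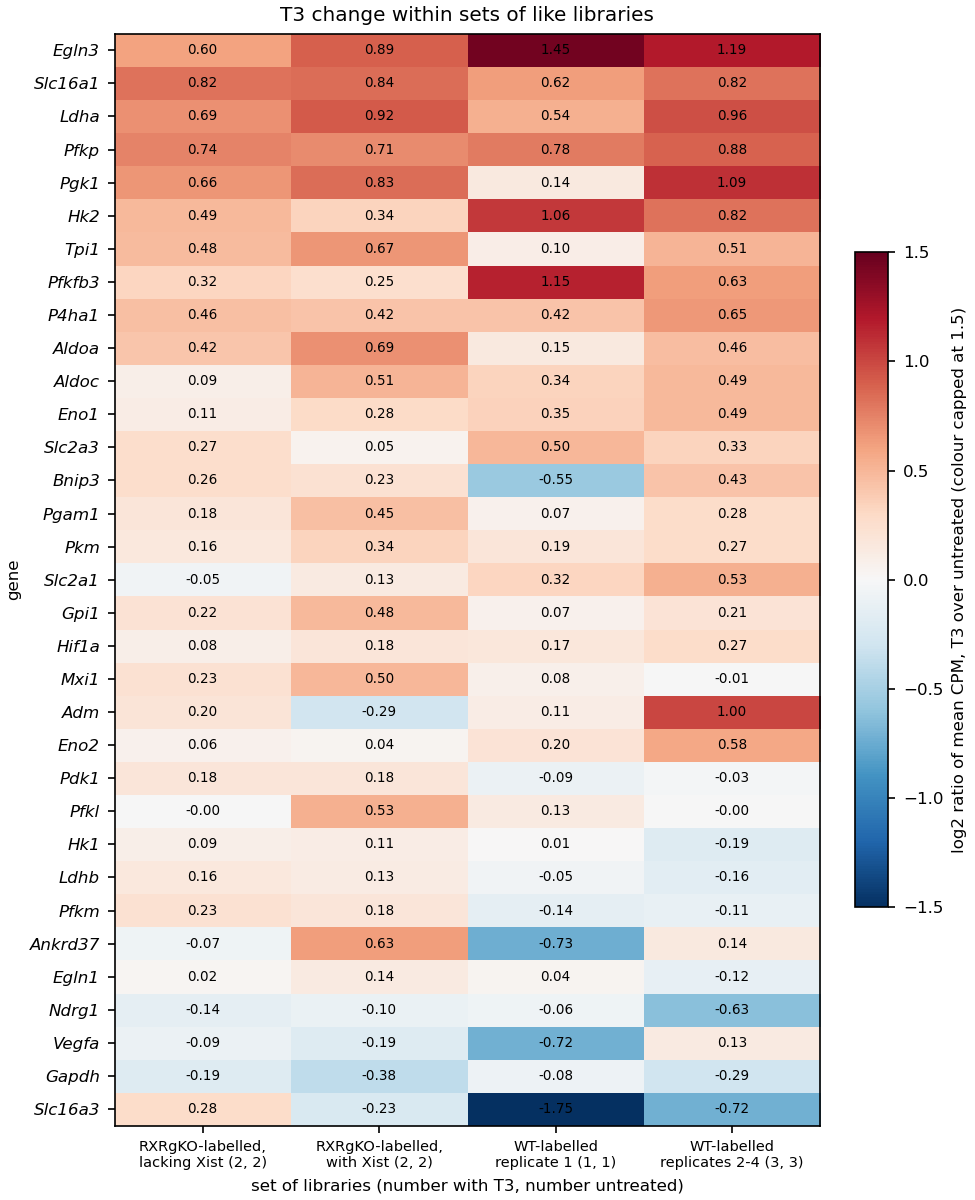
Log2 ratio of mean CPM, T3 over untreated, of the 33 genes within each set of like libraries, with the number of libraries with T3 and untreated under each set; rows are ordered by the median over the sets. Egln3, Slc16a1, Ldha and Pfkp lead with 0.54 or more in each of the 4 sets, and Gapdh and Ndrg1 are below 0 in all 4.

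With the library set as a term in the edgeR fit, whose p-values then measure the spread within sets and rest on the same match of T3 with untreated libraries, 20 of the 33 genes passed in RXRgKO-labelled libraries (19 higher, 1 lower) and 22 in WT-labelled libraries (19 higher, 3 lower). All genes tested passed at 20.1% higher and 13.5% lower in RXRgKO-labelled libraries and at 20.4% higher and 18% lower in WT-labelled ones. The lower genes were Gapdh in RXRgKO-labelled libraries, and Hk1, Slc16a3 and Ndrg1 in WT-labelled ones. For WT-labelled libraries replicate numbers could be taken as pairs, and a fit on them alone with the replicate number as a block gave 19 called members, 17 higher and 2 lower (Slc16a3 and Ndrg1), against 16% and 13.3% of the genes tested there. Ldha then had a log2 fold change of 0.84 (SE 0.09, edgeR adjusted p = 0.000119) and Slc16a1 one of 0.76 (SE 0.08, edgeR adjusted p = 7.21e-05). Both p-values rest on the numbers being pairs, which the correlations do not show beyond replicate 1.

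Several cell type markers moved with T3 as well. Of the 8 oligodendrocyte markers, 6 rose in RXRgKO-labelled and 5 in WT-labelled libraries, with the sums given above. The sum of 4 cell cycle genes was 203 to 360 CPM with T3 and 400 to 463 CPM untreated in RXRgKO-labelled libraries, and 445 to 661 CPM with T3 and 521 to 695 CPM untreated in WT-labelled ones. The 8 astrocyte markers summed to 4080 to 7610 CPM with T3 and 2720 to 5250 CPM untreated in RXRgKO-labelled libraries, and to 4540 to 15000 CPM with T3 and 3000 to 8220 CPM untreated in WT-labelled ones, although 0 of the 8 were called under either label by edgeR. Of these astrocyte markers Gfap alone stood at 1756 to 4010 CPM with T3 and 521 to 2215 CPM untreated in RXRgKO-labelled libraries. In WT-labelled ones it stood at 2455 to 11210 CPM with T3 and 819 to 4728 CPM untreated. The median log2 fold change of the 8 was 0.177 in RXRgKO-labelled and 0.0838 in WT-labelled libraries, so the sums do not show a rise of the markers as a group. Of the 8 neuronal markers, 3 fell with T3 in WT-labelled libraries and 0 were called in RXRgKO-labelled ones. Their sum was 521 to 854 CPM with T3 and 617 to 914 CPM untreated in RXRgKO-labelled libraries, and 333 to 434 CPM with T3 and 357 to 665 CPM untreated in WT-labelled ones. The share of the counter's entries outside genes also differed. It was 11.5% to 18.7% with T3 and 18.1% to 23.5% untreated in RXRgKO-labelled libraries, and 12.5% to 14.7% with T3 and 16.7% to 17.6% untreated in WT-labelled ones. The part of these shifts in the T3 values of the 33 genes was not tested.

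WT-labelled replicate 1 stood apart in these genes too. It lay above the other 3 libraries of its group for 24 of the 33 genes with T3 and for 29 untreated. Eno2, Ldhb, Bnip3 and Ndrg1 lay below the other 3 under both treatments. The share of all genes that lay so was not counted, so these counts do not show a trait particular to the 33 genes. Over genes at large replicate 1 differed from replicates 2 to 4 by a chi-square per gene of 7.66 to 7.74 with T3 and 8.20 to 8.49 untreated. Its astrocyte markers summed to 15000 CPM with T3 and 8220 CPM untreated, against 4540 to 5330 CPM and 3000 to 3210 CPM in replicates 2 to 4. Gfap alone stood at 11210 CPM and 4728 CPM in it, against 2455 to 2834 CPM and 819 to 1001 CPM. With T3 the OPC markers of WT-labelled replicate 1 summed to 4240 CPM, cell cycle genes to 661 CPM and neuronal markers to 333 CPM. In replicates 2 to 4 these were 2860 to 3100, 445 to 454 and 418 to 434 CPM. Untreated they were 5060, 695 and 357 CPM in it, against 3540 to 3800, 521 to 582 and 624 to 665 CPM. Entries placed at several sites were 39.65% with T3 and 41.22% untreated in it, against 52.32% to 54.35% and 53.6% to 55.01%. The part of all these in its glycolytic levels was not tested. Without both libraries numbered 1 under the WT label, edgeR called 12 of the 33 genes for T3 in WT-labelled libraries (11 higher, 1 lower) and 7 in RXRgKO-labelled ones (7 higher, 0 lower). All genes tested in that fit passed at 7.73% higher and 5.33% lower in WT-labelled libraries and at 4.79% higher and 2.69% lower in RXRgKO-labelled ones. Ldha, Slc16a1, Aldoa, Tpi1, Pfkp, Pgk1 and Egln3 passed under both labels. The RXRgKO-labelled libraries were the same as in the main fit, and the groups share 1 estimate of the spread. Under that label the value of Ldha was 0.79 in the main fit and 0.78 here, while its SE went from 0.25 to 0.14. The added RXRgKO calls are therefore no separate evidence from those libraries.

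The difference between the 2 T3 responses (RXRgKO label minus WT label) passed for 0 of the 33 genes in edgeR, against 0.0101% of all tested genes higher and 0.0557% lower. DESeq2 also called 0, and 2 genes had an unadjusted p under 0.05, Egln3 at -0.53 (SE 0.21, edgeR adjusted p = 0.74) and Pfkfb3 at -0.51 (SE 0.21, edgeR adjusted p = 0.852). The median of the 33 differences was -0.00844, beside 0.0262 over all genes. With the library set as a term 7 of the 33 passed, against 3.73% of all genes higher and 2.95% lower. Those p-values measure only the spread within sets and rest on the uncertain match of T3 with untreated libraries. Xist and Ddx3y differed between treatments in 2 of the sets. In that fit the difference was above 0 for Pfkm at 0.32 and Mxi1, a MYC antagonist, at 0.36. It was below 0 for Egln3 at -0.51, Hk2 at -0.49, Pfkfb3 at -0.48, Eno2 at -0.45 and Slc2a1 at -0.42.

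The isozyme balance was read as the log2 ratio of counts of 2 genes within a library, which needs no scaling between libraries. Of 32 such tests (8 gene pairs in 4 comparisons), the lowest adjusted p was 0.114, and an exact permutation test of 4 against 4, two-sided, cannot give an unadjusted p below 0.0286. In 8 of the 32 the groups did not overlap. The ratio of Hk2 to Hk1 averaged -2.22 ± 0.19 with T3 and -3.23 ± 0.14 untreated in WT-labelled libraries (SD, n = 4 each; exact permutation p = 0.0286), so that per exon length Hk2 made up 20.9% to 26.5% of the pair with T3 and 12.4% to 14.9% untreated. Egln3 made up 29.6% to 38.0% of the Egln3 and Egln1 pair with T3 and 13.7% to 18.8% untreated in the same libraries.

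In RXRgKO-labelled libraries Ldhb made up 57.0% to 62.5% of the lactate dehydrogenase pair per exon length with T3 and 69.3% to 71.2% untreated. Their log2 ratio differed by -0.66 (exact permutation p = 0.0286, n = 4 each). In WT-labelled libraries the share was 48.1% to 69.0% with T3 and 58.1% to 82.9% untreated, with overlap, and the lowest library of each group was replicate 1. The share of Pfkp among the 3 phosphofructokinases was 17.9% to 23.2% with T3 and 10.8% to 13.3% untreated in WT-labelled libraries, without overlap, and in RXRgKO-labelled libraries it was 8.43% to 15.9% with T3 and 6.40% to 12.1% untreated. Slc16a3 made up 0.287% to 0.660% of its pair with Slc16a1 with T3 and 1.25% to 2.21% untreated in WT-labelled libraries, without overlap, but on only 8 to 68 reads of Slc16a3 per library. Between labels untreated, Hk2 made up 17.4% to 23.4% of its pair in RXRgKO-labelled libraries and 12.4% to 14.9% in WT-labelled ones, also without overlap. The height of all these shares depends on the exon lengths used. For Pfkp this was 13401 bases, against 4145 in its longest coding transcript, and for Pfkm 3340 against 2879. For Ldha it was 3310 against 1815, and for Ldhb 1570 against 1304. The log2 ratios of counts used no lengths.

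The comparison of the genotype labels asks what follows from loss of the receptor, with the limit that Rxrg went against the labels. In untreated libraries 2 of the 33 genes were higher and 1 lower in RXRgKO-labelled ones. These shares are close to those of all tested genes, 6.17% higher and 5.16% lower. The median log2 value was -0.0339, beside -0.000818 over all genes tested. Adm, which encodes the peptide hormone adrenomedullin, stood at 2.06, 2.77, 2.64 and 2.54 CPM in RXRgKO-labelled replicates 1 to 4, against 1.99, 0.972, 0.842 and 0.871 CPM in WT-labelled ones, a log2 fold change of 1.09 (SE 0.26, edgeR adjusted p = 0.00979). Without the RXRgKO-labelled set with Xist it was 0.93 and not called (edgeR adjusted p = 0.0615). Its highest WT-labelled library was replicate 1, close below the lowest RXRgKO-labelled one, and at 20 to 95 reads per library Adm is among the least counted of the 33.

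Pfkfb3 stood at 55.0, 69.6, 59.3 and 60.0 CPM in untreated RXRgKO-labelled libraries, all above the 41.1, 35.0, 36.3 and 38.9 CPM of the WT-labelled ones. The change was 0.69 (SE 0.15, edgeR adjusted p = 0.00551). Pfkp went the other way, at 53.8, 40.1, 61.7 and 39.9 CPM against 99.0, 65.7, 71.6 and 67.6 CPM, a log2 value of -0.64 (SE 0.20, edgeR adjusted p = 0.0444). This call was lost without any of WT-labelled replicates 1, 3 and 4 or RXRgKO-labelled replicates 1, 2 and 4, with adjusted p from edgeR of 0.0523 to 0.134. In all, 3 of the 33 genes lay higher in every RXRgKO-labelled library (Adm, Pfkfb3 and Egln3) and 2 lower (Pfkp and Mxi1), against 9.35% and 9.36% of all genes tested.

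With T3, 0 of the 33 genes were higher and 2 lower (6.06%) in RXRgKO-labelled libraries, against 8.1% of all tested genes higher and 6.8% lower. DESeq2 called 0 higher and 3 lower (Eno2, Pfkp and Vegfa), against 6.82% and 6.8% of its tested genes. In edgeR 3 of the 33 had an unadjusted p under 0.05, with no share of all genes counted. The median log2 value was 0.12, beside 0.0247 over all genes tested. Eno2, the enolase of neurons and other neural cells, stood at 18.3, 18.2, 13.6 and 14.1 CPM in RXRgKO-labelled libraries, against 17.9, 45.0, 48.8 and 56.8 CPM in WT-labelled ones. The fall was 1.40 on the log2 scale as edgeR fitted it (value -1.40, SE 0.30, adjusted p = 0.00367), but WT-labelled replicate 1 lay within the RXRgKO-labelled range, and without both WT-labelled libraries numbered 1 it was -1.65 (SE 0.14, edgeR adjusted p = 1.05e-06). Untreated, Eno2 showed the same split, at 16.1, 13.7, 18.9 and 13.2 CPM against 15.5 CPM in WT-labelled replicate 1 and 32.8 to 34.3 CPM in replicates 2 to 4. The 8 neuronal markers, with T3, summed to 521 to 854 CPM in RXRgKO-labelled libraries, against 333 CPM in WT-labelled replicate 1 and 418 to 434 CPM in replicates 2 to 4. Their part in the Eno2 values was not tested.

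Pfkp stood at 98.4, 94.8, 65.2 and 65.6 CPM with T3 in RXRgKO-labelled libraries, all below the 170, 132, 125 and 121 CPM of WT-labelled ones, a log2 value of -0.76 (SE 0.20, edgeR adjusted p = 0.0135). Its log2 ratio to the other 2 phosphofructokinases was -1.18 in RXRgKO-labelled and -0.17 in WT-labelled libraries, a difference of -1.01 without overlap (exact permutation p = 0.0286, n = 4 each, adjusted p = 0.114). Vegfa stood at 25.8 to 29.9 CPM in RXRgKO-labelled and at 34.6 to 41.5 CPM in WT-labelled libraries with T3, a value of -0.45 (SE 0.17, edgeR adjusted p = 0.0808). DESeq2 called it (adjusted p = 0.0414), as did edgeR without both WT-labelled libraries numbered 1 (adjusted p = 0.00593). Vegfa and Pfkp were the 2 genes below every WT-labelled library and 0 were above, against 8.91% and 9.17% of all genes tested.

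Without both WT-labelled libraries numbered 1, edgeR called 11 of the 33 genes with T3 (8 higher, 3 lower in RXRgKO-labelled libraries) and 10 untreated (8 higher, 2 lower). All genes tested in that fit passed at 11.5% higher and 9.02% lower with T3 and at 8.15% higher and 6.57% lower untreated. Hif1a was then higher at 0.55 with T3 (edgeR adjusted p = 0.00391) and at 0.69 untreated (adjusted p = 0.000994), and Ldha, Slc16a1, Pfkfb3 and P4ha1 also passed as higher in both. In the full data Hif1a was not called, at 0.37 with T3 (edgeR adjusted p = 0.212) and 0.47 untreated (adjusted p = 0.125). The groups overlapped, at 318 to 411 CPM in RXRgKO-labelled and 239 to 376 CPM in WT-labelled libraries with T3. Untreated they stood at 300 to 352 CPM and 199 to 334 CPM. As said above without a share of all genes, WT-labelled replicate 1 lay above the rest of its group for 24 of the 33 genes with T3 and 29 untreated. Leaving it out therefore raises most of these values, and the WT-labelled libraries left form 1 set.

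**Figure D5:**
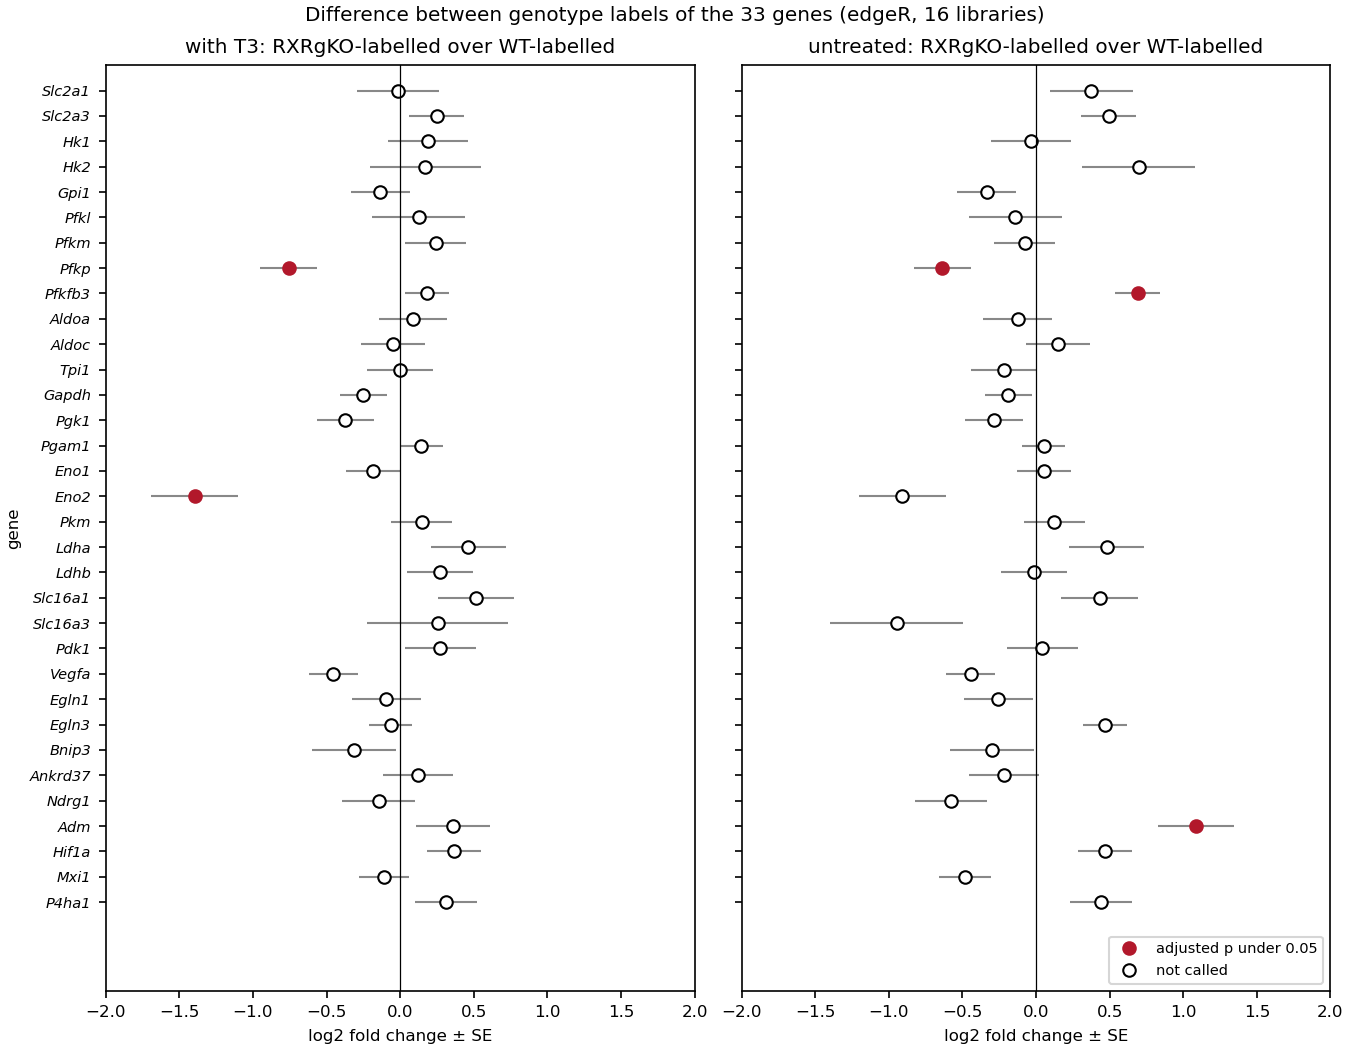
Log2 fold change of RXRgKO-labelled over WT-labelled libraries with its SE for the 33 genes from the edgeR fit of 16 libraries, with T3 (left) and untreated (right); filled points passed an adjusted p of 0.05. Pfkp is below 0 and passed on both sides, at -0.76 and -0.64.

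The 2 sets of RXRgKO-labelled libraries differed among themselves in many of these genes. With T3 the set with Xist lay above the set lacking Xist for 16 of the 33 genes and below for 12, and untreated above for 16 and below for 14. The share of all genes that separated the sets was not counted. As the sets were formed by the distance between libraries over genes at large, these counts do not show a trait particular to the 33 genes. For Hk2 the set with Xist stood at 28.6 and 27.1 CPM against 13.2 and 13.7 CPM with T3, and at 22.9 and 21.1 CPM against 9.76 and 9.45 CPM untreated. Aldoc ran the other way, at 580 and 603 CPM against 880 and 770 CPM with T3, and at 431 and 398 CPM against 759 and 792 CPM untreated. These gaps between sets were wider than the T3 changes of the same genes, which were 0.39 for Hk2 and 0.25 for Aldoc on the log2 scale under this label. With T3 the OPC markers summed to 3640 and 3900 CPM in the set with Xist, against 2030 and 1970 CPM. Untreated they summed to 4590 and 4600 CPM, against 2660 and 2420 CPM. Astrocyte markers summed to 4080 and 4310 CPM against 7610 and 6690 CPM with T3, and to 2760 and 2720 CPM against 4940 and 5250 CPM untreated. The part of these markers in the gaps was not tested.

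The other genes of the pathway were read from a list of further glycolysis and pyruvate genes, of which 25 of 28 were tested. With T3, 2 rose in RXRgKO-labelled libraries, Pfkfb4, a sister enzyme of Pfkfb3, by 0.65 (SE 0.12, edgeR adjusted p = 0.00625) and the lactate and pyruvate carrier Slc16a7 by 0.99 (SE 0.20, edgeR adjusted p = 0.0104), and 0 fell. In WT-labelled libraries 5 rose and 1 fell. Pfkfb4 rose by 0.89, Slc16a7 by 1.15, the pyruvate dehydrogenase kinase Pdk3 by 1.05, and Bsg, the chaperone of the lactate carriers, by 0.58. The median over the list was 0.0613 in RXRgKO-labelled and 0.106 in WT-labelled libraries.

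Of 7 pentose phosphate genes, which branch from glycolysis and supply NADPH, 1 rose with T3 under each label. It was Taldo1, transaldolase, at 225 CPM with T3 against 137 CPM untreated in RXRgKO-labelled libraries (log2 fold change 0.72, SE 0.15, edgeR adjusted p = 0.0141) and at 463 CPM with T3 against 251 CPM untreated in WT-labelled libraries (0.88, SE 0.15, edgeR adjusted p = 0.00137). Between labels Taldo1 was lower in RXRgKO-labelled libraries, by -1.04 with T3 and -0.88 untreated, and with T3 Rpia was lower too, at -0.53. Of the 7, the others did not pass.

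HIF regulators and other HIF targets did not move as 1 group with T3. Of 10 regulators, Epas1, which encodes HIF-2 alpha, rose by 1.07 (SE 0.23, edgeR adjusted p = 0.0074) and Hif3a fell by 1.04 on the log2 scale in WT-labelled libraries, and 0 of 10 passed in RXRgKO-labelled ones. Of 26 other HIF targets, 3 rose and 1 fell in WT-labelled libraries. The collagen-modifying Plod1 rose by 0.88, the mitochondrial Higd1a by 0.67 and the transcription factor Bhlhe40 by 0.90, while Angptl4, an inhibitor of lipoprotein lipase, had a log2 value of -2.59. In RXRgKO-labelled libraries 0 of the 26 passed in either direction.

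Between labels, 7 of the 26 other HIF targets were higher in RXRgKO-labelled libraries and 0 lower untreated, and 6 were higher and 2 lower with T3. All genes tested also differed more often between labels than with T3, at the shares given above. Lox, the collagen cross-linking enzyme, averaged 8.15 CPM in RXRgKO-labelled and 1.79 CPM in WT-labelled libraries with T3 (log2 fold change 2.17, SE 0.30, edgeR adjusted p = 0.000106), and 10.1 CPM and 1.12 CPM untreated (3.18, SE 0.32, edgeR adjusted p = 5.71e-06). With T3 the others named were Cxcr4 at 1.36, Stc1 at 1.17 and Ddit4 at -0.80, and untreated Stc1 at 1.24 and Flt1 at 1.14. Markers of mesenchymal cells, 6 genes, summed to 105 to 112 CPM in RXRgKO-labelled and 39.0 to 50.9 CPM in WT-labelled libraries with T3, and to 125 to 161 CPM and 58.0 to 63.7 CPM untreated. Those of endothelial cells, 6 genes, summed to 20.1 to 30.8 CPM and 7.46 to 10.1 CPM with T3 and to 20.1 to 46.8 CPM and 5.85 to 9.05 CPM untreated, with Cldn5 at no more than 0.31 CPM in any library. Of the endothelial markers Kdr spanned 4.31 to 44.9 CPM over the libraries, and each of the others stayed at 1.88 CPM or less. The endothelial sums therefore rest mostly on Kdr. The 6 microglial markers summed to 10.0 CPM or less in every library, with Aif1 and Itgam at 0 in at least 1 of them. The part of these markers in the differences between labels was not tested.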

How the data were processed

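RNA was measured in 16 libraries, 4 in each of 4 groups. The authors deposited raw read counts, 1 value per Ensembl gene and library. The submitters' processing notes name the mm10 build and the tools HTSeq 0.6.1p1, STAR 2.5.3a and bcl2fastq 2.17.1.14. Libraries were strand-specific, per the labels' protocols, but neither the counter's strand setting nor its gene annotation is given in the sources used here. The 5 HTSeq summary lines were left out of library sizes and tests. Entries placed at several sites made up 39.6% to 55.0% of all entries in the files, and entries in no gene 11.5% to 23.5%. These are not shares of reads, as a read may have an entry for each site. GENCODE M21 (GRCm38) supplied symbols and exons; Aldoa has 2 identifiers, and ENSMUSG00000030695 was used.

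Tests used R 4.3.3 with edgeR 4.0.16 and limma 3.58.1: 1 quasi-likelihood fit of all 16 libraries with a mean per group, TMM factors, robust dispersions and filterByExpr by group, and Benjamini-Hochberg adjustment over 19764 genes. SEs were derived from the log2 fold change and F. CPM are TMM-normalised and, for levels between genes, divided by the union of annotated exons. Isozyme ratios used a prior count of 0.5 and exact permutation tests. Sets joined libraries with a chi-square per gene under 3. Steps were tested on simulated data.

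The 33 genes and the further lists were chosen with earlier results of these data known. By the rule for named genes, all 33 could be named, those called with every library's value, plus up to 4 called genes per further list and comparison by smallest adjusted p, Rxrg, and near-identical copies. Ldha and Slc16a1 were given in full after their values were seen.

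Same-number libraries deviated together for T3 in WT-labelled libraries (correlations 0.648, 0.247, 0.211 and 0.164). Numbers were treated as pairing those libraries, although replicate 1 was the only one to correlate best with its own number. The correlations of the other replicates therefore do not show that their numbers are pairs. Under the RXRgKO label correlations ran from -0.697 to 0.6. Alternatives were DESeq2 1.42.0, its size factors within edgeR, no count filter, only the groups compared, a replicate block, the library set as a term, sets or single libraries left out, and, chosen after seeing the data, a block on WT-labelled libraries alone.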

Additional observations from a re-analysis of the deposited data

Results flagged for a closer look

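In 25 of 132 groups of 4 values (33 genes in 4 groups), 1 library lay farther from the other 3 than Dixon's critical value allows, which chance gives in about 1 in 20 groups. The 25 cover 19 genes, and the library was WT-labelled replicate 1 each time. With T3 it was the highest for Hk1 at 126 CPM (others 65.3 to 72), Hk2 at 31.8 CPM (others 12.3 to 15.3), Gpi1 at 203 CPM (others 125 to 133), Pfkl at 102 CPM (others 44.3 to 46.3), Pfkm at 143 CPM (others 82.7 to 87.2), Slc16a1 at 157 CPM (others 84.2 to 95.4) and Hif1a at 376 CPM (others 239 to 259). It was the lowest for Bnip3 at 19.3 CPM (others 45.1 to 47.1).

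Untreated, WT-labelled replicate 1 was the highest for Hk1 at 125 CPM (others 74.8 to 79.3), Hk2 at 15.3 CPM (others 7.52 to 8.3), Gpi1 at 193 CPM (others 109.5 to 113), Pfkm at 157 CPM (others 87 to 94.6), Aldoa at 384 CPM (others 182 to 188), Tpi1 at 132 CPM (others 60.4 to 67.1), Pkm at 326 CPM (others 217.8 to 218.4), Ldha at 157 CPM (others 71.6 to 76.5), Slc16a1 at 102 CPM (others 48.7 to 53.3), Pdk1 at 62.1 CPM (others 31.3 to 32.7), Vegfa at 61.4 CPM (others 33.9 to 36.9), Adm at 1.99 CPM (others 0.842 to 0.972), Hif1a at 334 CPM (others 199 to 216), Mxi1 at 91.8 CPM (others 75.2 to 77.8) and P4ha1 at 67.9 CPM (others 36 to 39.9). It was the lowest for Eno2 at 15.5 CPM (others 32.8 to 34.3) and Ldhb at 103 CPM (others 159 to 167). What sets this library apart was not tested.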

How the results depend on the processing

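Counts of called genes depended on how sets of libraries were treated, and no call reversed. For T3 in WT-labelled libraries edgeR called 4 of the 33 genes and 1668 of all genes. The values were 22 and 7599 with a term for library set, 19 and 5084 with the replicate block on WT-labelled libraries alone, 12 and 2688 without both WT-labelled libraries numbered 1, and 8 and 2800 or 7 and 2626 without the RXRgKO-labelled set lacking or with Xist. Leaving out each library gave 3 to 12 and 997 to 2475, the highest without untreated replicate 1. For T3 in RXRgKO-labelled libraries, with 1 and 555, they were 20 and 6634 with that term, 7 and 1540 without both WT-labelled libraries numbered 1, 0 and 129 without the set with Xist, 5 and 997 by DESeq2, 2 and 381 without a filter, 2 and 474 with only the groups compared, 4 and 516 with the replicate block, and 0 to 3 and 253 to 500 leaving out each library.

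Between labels untreated, with 3 and 2240, they were 19 and 7439 with that term, 10 and 3028 without both WT-labelled libraries numbered 1, 5 and 2237 without the set lacking Xist, 5 and 4518 without the set with Xist, 5 and 2271 with only the groups compared, and 2 to 8 and 1712 to 2206 leaving out each library. With T3, against 2 and 2943, they were 16 and 8408 with that term, 11 and 4214 without both WT-labelled libraries numbered 1, 3 and 5955 without the set with Xist, and 2 to 4 and 2178 to 3195 leaving out each library. For the response difference, with 0 and 13, they were 7 and 1321 with that term, and for all genes 118 without both WT-labelled libraries numbered 1, 26 without the set lacking Xist, 85 by DESeq2, 4 with the replicate block and 3 to 49 leaving out each library. The cause of these shifts was not tested. The replicate block in all 16 libraries gave 6 members and 1537 genes for T3 in WT-labelled libraries, and leaving out 1 library of an arm leaves its spread to the other groups. Read depth limits Slc16a3 and Adm most, with 8 to 68 and 20 to 95 reads per library.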
